A study of Homo sapiens with 4 samples.

Results

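The metallothioneins described here are *MT1E*, *MT1F*, *MT1G*, *MT1M*, *MT1X* and *MT2A*, 6 named members of a family of small metal-binding proteins, matched by gene symbol to the Ensembl identifiers of the count tables. They are 6 of the 34241 genes listed in any of the 4 tables, and all 6 were among the 32991 listed in every table. A375, an established human melanoma line with the *BRAF* V600E mutation, was profiled by droplet single-cell RNA sequencing in 4 cultures, all grown in RPMI with serum. S cells were untreated, RV cells had been made resistant to the BRAF inhibitor vemurafenib, RVC cells to vemurafenib with the MEK1/2 inhibitor cobimetinib, and RVT cells to vemurafenib with the MEK1/2 inhibitor trametinib. The drugs had been given for 10 to 14 days at concentrations below the IC50 and were withdrawn 24 h before capture, so that none of the cultures was on drug when measured. Each culture was 1 library of a single cell line, so that no test between conditions was possible and every interval given covers counting error only.

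Metallothioneins are short, cysteine-rich proteins that hold zinc and copper ions and also bind cadmium and other toxic metals. They buffer the free zinc of the cell and take up oxidants through their thiol groups. Their genes lie side by side on the long arm of chromosome 16, and the zinc-sensing transcription factor MTF1 switches many of them on through metal response elements in their promoters. *MT2A* is the isoform found in most tissues, *MT1X*, *MT1E* and *MT1F* are also widely used, and *MT1G* and *MT1M* are more restricted. Glucocorticoids are a further known inducer of *MT2A*.

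In GENCODE 29 (build GRCh38) the 6 genes lay within 75998 bases of chromosome 16. *MT2A* came first (chr16:56608199-56609497), followed by *MT1E* (chr16:56625475-56627112), *MT1M* (chr16:56632233-56633986), *MT1F* (chr16:56657694-56660698), *MT1G* (chr16:56666731-56668065) and *MT1X* (chr16:56682424-56684196). *MT1G* was read from the minus strand and the other 5 from the plus strand. The last 300 bases were taken from each member's longest protein-coding transcript and from its protein-coding transcript with the furthest 3′ end. No stretch of 100 bases in them occurred at full identity in a transcript of another member or of 14 further metallothionein genes and pseudogenes. The pseudogene *MT1IP*, within the cluster, was not among the 14. In all other genes only the first, middle and last stretch were searched for, and none was found. A read of that length without error could therefore be told apart between the genes searched in full. A unique place among all genes was not tested. *AC026461.1* overlaps *MT1X* on the same strand and had no row in any of the tables.

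The promoters of *MT2A* and *MT1X* are shown because these 2 genes carried nearly all member UMIs (unique molecular identifiers, each standing for 1 captured transcript) and yet differed in the direction of their levels. The set of RefSeq (GRCh38.p14) promoter windows used here, 250 bases before to 50 after the gene start, held 2 of the 6 members. The promoters of the others could therefore not be shown. The 250 bases upstream are printed 5′ to 3′ on the plus strand, at chr16:56608334-56608583 for *MT2A* and chr16:56682220-56682469 for *MT1X*. Capitals mark the metal response element core TGCGCNC or TGCACNC on either strand.
MT2A: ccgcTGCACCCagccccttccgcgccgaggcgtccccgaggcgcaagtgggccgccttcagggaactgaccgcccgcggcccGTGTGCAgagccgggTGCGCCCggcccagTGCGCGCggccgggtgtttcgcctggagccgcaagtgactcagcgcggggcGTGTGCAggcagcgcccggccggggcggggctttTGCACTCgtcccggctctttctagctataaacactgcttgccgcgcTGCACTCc
MT1X: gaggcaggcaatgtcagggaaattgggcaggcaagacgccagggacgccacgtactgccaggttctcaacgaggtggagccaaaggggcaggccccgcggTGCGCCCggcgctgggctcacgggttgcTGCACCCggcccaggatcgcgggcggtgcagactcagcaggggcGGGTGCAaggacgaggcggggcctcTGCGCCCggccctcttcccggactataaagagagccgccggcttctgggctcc

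The whole *MT2A* window held 8 matches to the core, 7 of them upstream of the start, and the *MT1X* window held 4, all upstream. Of 35116 promoter windows of the same length, 29.6% held at least 1 match, 0.601% held at least 4 and 7 windows held at least 8. Those windows were not matched for GC content, which was 72% in the *MT2A* window and 67% in the *MT1X* window. In both genes 1 match lay from 53 or 54 bases before the start. The window of *MT1H*, a neighbour that was at 0 UMIs in all 4 libraries, also held 8 matches, and that of *MT1B*, with at most 1 UMI in any library, held 3. In GENCODE 29 the longest protein-coding *MT2A* transcript starts upstream of the printed stretch and has all 250 bases of it in an exon, and 46 of the 250 bases for *MT1X* lie in the first exon of its protein-coding transcript with the furthest 3′ end. The matches are a description of letters and not of binding.

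After filtering, 6334 S, 4177 RV, 7628 RVC and 8446 RVT cells were kept, with 58519152, 52461572, 32974745 and 25390117 UMIs. The median cell held from 2864 UMIs in RVT to 11553 in RV. S and RV were counted on 1 list of genes and RVC and RVT on another, and the latter 2 libraries were also the shallower, so that gene list, depth and MEK inhibitor cannot be told apart. Ratios of RVC and RVT over S moved with the GC content of the transcript end, with a Spearman correlation of -0.34 and -0.40 across 6506 genes, which are not independent, against 0.01 for RV over S. The last 500 bases of the longest protein-coding transcript had 58.2% GC for *MT2A* and 54.4% for *MT1X*, above the median of 41.2%. For *MT2A* that transcript is 786 bases long, with the whole stretch printed above as promoter in an exon. Its last 500 bases can therefore include part of that stretch, and GC centring of *MT2A* and of the summed members rests on them. The *MT2A* transcript with the furthest 3′ end had the same length and GC content. In the protein-coding transcript with the furthest 3′ end *MT1X* had 50.9%, and GC centring on such transcripts gave log2 ratios over S of 0.28 for *MT2A* in RVC and -2.69 in RVT, and of 2.42 and 0.86 for *MT1X*. Of 8 melanocyte markers, all given as a check of the cell type, *TYR*, *MLANA* and *DCT* had at most 2 UMIs and *PMEL* at most 24 in each library. *SOX10* was at 86.5, 39.9, 0 and 19.7 counts per 1000000 UMIs (CPM) in S, RV, RVC and RVT, and *S100B* at 32.8, 6.96, 0 and 0.236. *MITF* was highest in RVT, at 9.77, 20.01, 8.13 and 41.9 CPM, and *TYRP1* had 4, 1, 156 and 44 UMIs. Of 10 markers of blood, endothelial, epithelial and stromal cells, *PTPRC* and *CD3E* were at 0 throughout and none but *DCN*, at 14.8 in RVC, and *KRT14*, at 11.4 in RV, exceeded 10 CPM. Pairs of libraries shared 36 to 103 filtered barcodes, at most 1.35% of a library.

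*MT2A* was by far the main metallothionein of S and RV cells and was scarce in RVT cells. S held 2810 CPM (2797 to 2824, exact 95% Poisson interval). RV held 5861 CPM (5840 to 5882), RVC 1304 CPM (1291 to 1316) and RVT 128 CPM (123 to 132). The 4 intervals were far apart, in the order RV, S, RVC, RVT, of which the step from S to RVC turned when ratios were centred on genes of like GC content, to a log2 ratio of 0.28 from -1.11. *MT2A* ranked 82nd among all genes of S by CPM and 36th in RV, but 132nd and 654th in RVC and RVT. UMIs count molecules at the transcript end, so that levels of different genes could be set side by side without a correction for length.

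*MT1X* followed another order. S held 96.2 CPM (93.7 to 98.8), RV 143 CPM (139.8 to 146), RVC 507 CPM (499 to 515) and RVT 162 CPM (157 to 167). RVC thus stood highest and S lowest, whereas for *MT2A* RV was highest and RVT lowest, and the RV and RVT intervals of *MT1X* lay apart by a small margin that turned with TMM factors, at a log2 ratio of -0.29 in place of 0.18 for RVT over RV. By rank *MT1X* was 1040th in S and 757th in RV, and 255th and 500th in RVC and RVT.

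The other 4 members were at or near 0. *MT1F* had 67, 17, 0 and 60 UMIs in S, RV, RVC and RVT, which came to 1.14, 0.324, 0 and 2.36 CPM. *MT1G* had 7 UMIs in S, 15 in RV and 0 in both RVC and RVT. *MT1M* had 1 UMI, in S, and *MT1E* had none in any library. A count of 0 allows up to 3 UMIs, or from 0.0513 CPM in S to 0.118 CPM in RVT. Of 14 further metallothionein genes and pseudogenes, 6 were listed in all tables, and of these *MT1B* had 1 UMI in each of S, RV and RVC and *MT3*, the isoform known from brain, 1 in S. The pseudogene *MT1IP*, which was not among the 14, was at 0 UMIs in every library. In the plot of levels by library, *MT2A* and *MT1X* are the members above 10 CPM.

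**Figure D1:**
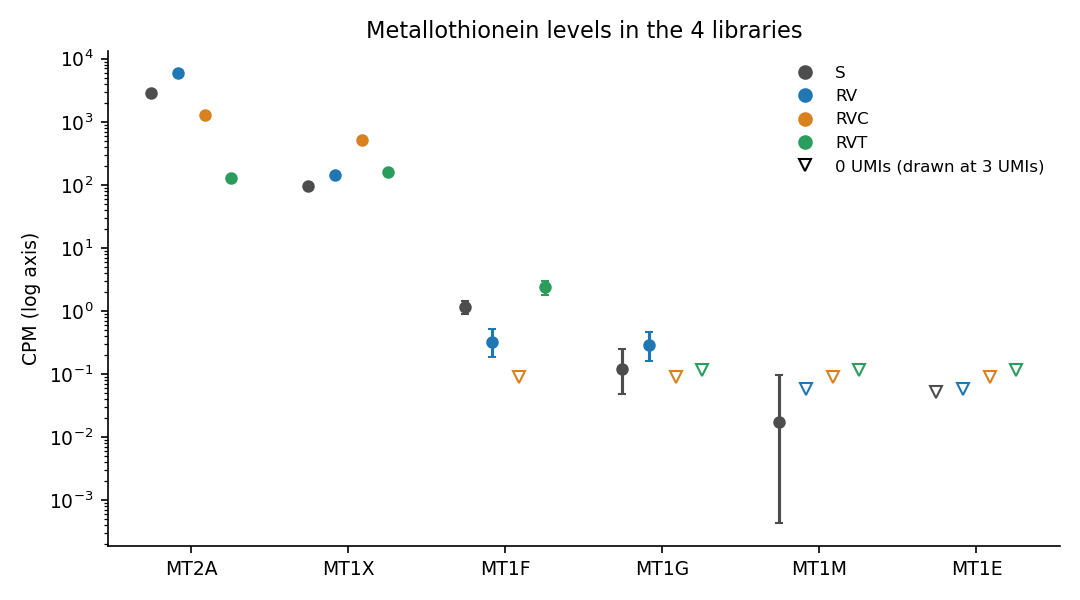
Level of each metallothionein in CPM (log axis) in S, RV, RVC and RVT; points are library values, bars exact 95% Poisson intervals of counting error, and open triangles mark 0 UMIs, drawn at the level of 3 UMIs. *MT2A* runs from 128 in RVT to 5861 in RV, *MT1X* from 96.2 in S to 507 in RVC, and *MT1E*, *MT1F*, *MT1G* and *MT1M* stay below 3 CPM.

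In RV, the library resistant to vemurafenib alone, *MT2A* was 2.09-fold higher than in S (2.07 to 2.10, exact conditional interval), a log2 ratio of 1.06. *MT1X* was 1.49-fold higher (1.43 to 1.54). In cells of 3000 to 6000 UMIs, of which S held 758 and RV 219, the log2 ratio was 1.10 for *MT2A* and 0.24 for *MT1X*, against 0.57 for *MT1X* over all cells. Of the 2 members whose mean over the libraries reached 10 CPM, 1 was thus at least 2-fold higher in RV and 0 at least 2-fold lower. Among all 6506 genes at that level 1.91% were at least 2-fold higher and 1.25% at least 2-fold lower. *MT2A* was exceeded by 109 of these genes and *MT1X* by 361. *MT1F* was lower in RV, 17 UMIs against 67, a ratio of 0.283 (0.156 to 0.488). For *MT1G*, 15 UMIs against 7 gave a ratio of 2.39, with an interval of 0.917 to 6.93 that includes equality.

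RVC cells had less *MT2A* and more *MT1X* than S cells. *MT2A* was 2.16-fold lower (2.13 to 2.18), whereas *MT1X* was 5.27-fold higher (5.11 to 5.43). Among all genes 22.5% were at least 2-fold higher in RVC and 23.3% at least 2-fold lower, so that a change past 2-fold was common in this comparison. *MT1X* nevertheless lay near the upper end, with 148 of 6506 genes having a higher ratio, while 1399 genes had a lower ratio than *MT2A*. The call for *MT2A* ended with the GC centring, which turned its direction but used a transcript end that can reach into the stretch printed as promoter. The ratio of *MT2A* also fell short of 2-fold in cells of 3000 to 6000 UMIs, at -0.83. The log2 ratio of *MT1X* was 2.66 after the same centring and 2.30 in those cells, against 2.40. *MT1F* was at least 12.6-fold lower in RVC than in S, computed against 3 UMIs in the library.

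RVT cells had the least *MT2A*, 22.0-fold below S (21.3 to 22.8), a log2 ratio of -4.46. Among all genes 28.7% were at least 2-fold higher in RVT and 24.3% at least 2-fold lower, and 52 of the 6506 had a lower ratio than *MT2A*. With centring on GC content the log2 ratio was -2.68. *MT1X* was 1.68-fold higher in RVT than in S (1.62 to 1.75), short of 2-fold, and 2301 genes had a higher ratio. That ratio was moved by scaling, from a log2 value of 0.75 to 0.23 with TMM factors and 1.11 with GC centring. For *MT1F* the 60 UMIs of RVT against 67 in S gave 2.06-fold (1.43 to 2.97) as CPM. In cells of 3000 to 6000 UMIs its log2 ratio was -0.03.

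**Figure D2:**
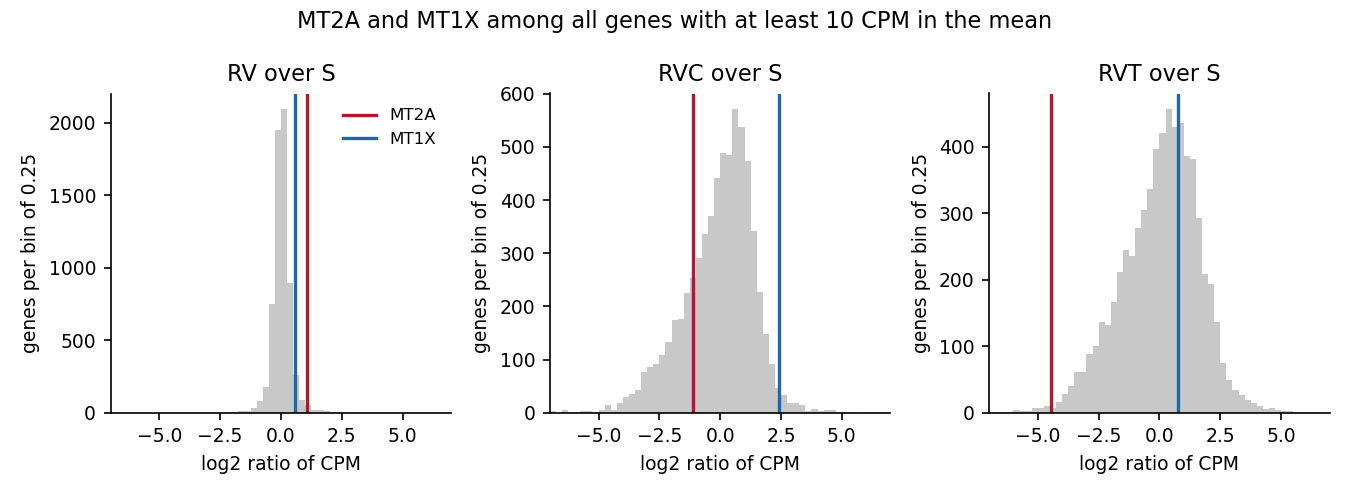
Log2 ratio of CPM in RV, RVC and RVT over S for the 6506 genes whose mean over the libraries reached 10 CPM (grey, genes per bin of 0.25), with *MT2A* in red and *MT1X* in blue. *MT2A* lies at 1.06, -1.11 and -4.46 and *MT1X* at 0.57, 2.40 and 0.75.

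The 2 cultures with a MEK1/2 inhibitor also differed from each other. Both *MT2A* and *MT1X* were lower in RVT than in RVC, *MT2A* by 10.2-fold (9.85 to 10.6) and *MT1X* by 3.13-fold (3.03 to 3.24). Past 2-fold lower in this comparison were 11.9% of all genes, and 48 genes had a lower ratio than *MT2A* and 298 a lower one than *MT1X*. These values moved less with GC content, to log2 ratios of -3.11 from -3.35 and -1.66 from -1.65. *MT1F* went the other way, 60 UMIs in RVT against 0 in RVC, at least 26.0-fold higher. Cobimetinib and trametinib are both allosteric MEK1/2 inhibitors, and each was given with vemurafenib at the same fraction of its own IC50, so that the doses were matched by that fraction and not by concentration.

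Against RV, which shares the vemurafenib treatment, *MT2A* was 4.50-fold lower in RVC (4.45 to 4.54) and 45.9-fold lower in RVT (44.4 to 47.5). *MT1X* was 3.54-fold higher in RVC (3.45 to 3.64) and 1.13-fold higher in RVT (1.09 to 1.18). All genes past 2-fold made up 22.3% higher and 24.5% lower in RVC over RV, and 25.3% lower in RVT over RV. Centring on GC content ended the 2-fold call for *MT2A* in RVC over RV, at a log2 ratio of -0.74 in place of -2.17, and set that in RVT over RV at -3.69 in place of -5.52. With TMM factors the log2 ratio of *MT1X* in RVT over RV went from 0.18 to -0.29, so that its direction changed with the scaling. These comparisons rest on the same libraries as those against S and are not independent of them.

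The make-up of the metallothionein pool followed from these levels. *MT2A* and *MT1X* stood at 29.2 to 1 in S (28.4 to 30.0) and 41.0 to 1 in RV (40.1 to 41.9). The ratio was 2.57 to 1 in RVC (2.53 to 2.62) and 0.789 to 1 in RVT (0.753 to 0.826). *MT1X* therefore made up 3.31%, 2.38%, 28.0% and 55.5% of member UMIs in S, RV, RVC and RVT (54.3% to 56.6% for RVT, exact binomial interval). Both genes come from the same library in each ratio, so that the library total does not enter it, but GC content does. The *MT2A* to *MT1X* ratio changed against S by a log2 value of -3.50 in RVC and -5.21 in RVT, and by -2.37 and -3.80 with both genes centred on genes of like GC content. Summed over all 6 members, the level was 2908, 6005, 1811 and 292 CPM in the same order, and RVT was 9.96-fold below S, a log2 ratio of -3.32 that became -2.16 with GC centring. The sum in RVC was 1.61-fold below S and stood at a log2 value of 0.47 above S after GC centring, in place of -0.68.

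The share of cells with a member UMI depends on depth, so cells were also thinned to 1500 UMIs each. *MT2A* was found in 99.4%, 99.9%, 90.5% and 25.8% of S, RV, RVC and RVT cells. At 1500 UMIs, which left out 397 RVC and 844 RVT cells but no S or RV cell, the shares were 86.4% (85.6 to 87.3), 95.7% (95.1 to 96.3), 75.6% (74.6 to 76.6) and 15.8% (14.99 to 16.6). *MT1X* was found in 49.4%, 64.0%, 75.7% and 32.7% of the cells, and after thinning in 12.4% (11.6 to 13.3), 16.7% (15.6 to 17.9), 48.3% (47.2 to 49.5) and 19.9% (19.0 to 20.8). RVT thus lay below S for *MT1X* before thinning and above it afterwards, the latter being the order of the levels. The cultures held no cell type known to lack these genes, so a share due to free RNA could not be measured.

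**Figure D3:**
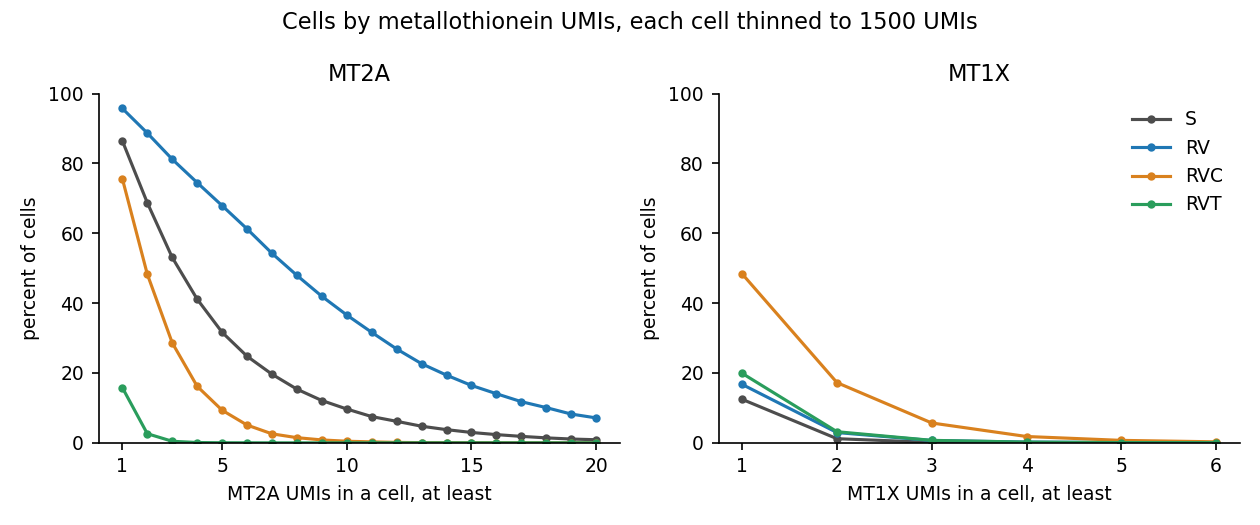
Percent of cells (vertical axis) with at least the number of *MT2A* (left) or *MT1X* (right) UMIs on the horizontal axis, each cell thinned to 1500 UMIs, in S, RV, RVC and RVT. For *MT2A* the RV curve lies highest, starting at 95.7%, and the RVT curve starts at 15.8%, whereas for *MT1X* the RVC curve lies highest, starting at 48.3%.

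*MT2A* was spread unevenly over the cells of a culture. Without thinning, the median S cell held 1857 *MT2A* CPM, the cell at the 5th percentile 335 and the cell at the 95th percentile 7639. In RV the same percentiles were 4948, 767 and 13510. The cells at the upper of these limits thus held 22.8 times the level of those at the lower in S and 17.6 times in RV. These ratios include the counting error of single cells, at a median of 15 *MT2A* UMIs per cell in S and 57 in RV. Their order is therefore not a comparison of spread. At 1500 UMIs per cell the Fano factor, the variance divided by the mean and near 1 for pure counting, was 4.203 for *MT2A* in S, 5th of 1886 genes with at least 50 CPM. It was 6.02 in RV, 3rd of 1962 genes, but 1.85 in RVC, 37th of 1694, and 1.23 in RVT, 145th of 1814. Median Fano factors were 1.03, 1.03, 1.03 and 1.02. The Fano factor also falls with the mean, which went from 8.65 UMIs per thinned cell in RV to 0.190 in RVT.

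The tenth of S cells with the most *MT2A* held 33.9% of its thinned UMIs, and this share was 28.0% in RV, 31.9% in RVC and 69.5% in RVT, where few cells held any. *MT1X* had Fano factors of 1.13, 1.48, 1.34 and 1.32 in S, RV, RVC and RVT, with ranks 203, 50, 113 and 104. A single RV cell held 124 *MT1X* UMIs before thinning. Leaving out the 1% of cells with the most member UMIs in every library left each log2 ratio of *MT2A* and *MT1X* in its direction.

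Over the cells of each library *MT2A* and *MT1X* went together with r values that depended on thinning. Pearson's r of thinned log counts was 0.13, 0.20, 0.13 and 0.10 over 6334 S, 4177 RV, 7231 RVC and 7602 RVT cells, and Spearman's rho was 0.12, 0.20, 0.12 and 0.09. Without thinning, Pearson's r was 0.29, 0.45, 0.22 and 0.16. All cells of a library share its preparation and depth, and sparse counts hold r down, so these are descriptions. Among all genes with at least 50 CPM in the library, *MT2A* was the gene with the highest r to *MT1X* in S, RV and RVC, of 1885, 1961 and 1693 genes, and the 2nd of 1813 in RVT. In the other direction *MT1X* was 42nd, 25th, 6th and 13th in its r to *MT2A*. S cells with an *MT1X* UMI held 5.53 *MT2A* UMIs on average at 1500 UMIs, and those without held 3.76. The means were 11.7 and 8.02 for RV cells, 2.08 and 1.72 for RVC cells and 0.278 and 0.168 for RVT cells. In RVT 68.6% of thinned cells held neither transcript, 15.6% *MT1X* alone, 11.5% *MT2A* alone and 4.31% both.

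The genes with the highest and lowest r to the summed members over cells differed in part between libraries. Some recurred, such as *H2AFZ* among the highest in RV, RVC and RVT and *NEAT1* among the lowest in RV and RVC. The 5 genes with the highest r in S were *KRT81* (0.43) and *KRT7* (0.29), both keratins, *TUBA1B* (0.30), a tubulin, *TMSB10* (0.30), a thymosin, and *SPANXB1* (0.29), a cancer-testis gene. The lowest were *CD74* (-0.29), the invariant chain of MHC class II, *SLC26A2* (-0.25), *SNRPB2* (-0.21), *EEF2* (-0.19) and *RPL37A* (-0.18). S cells with a thinned *KRT81* UMI held 5.83 *MT2A* UMIs against 2.50 in those without, 2.34-fold more, and those with a *CD74* UMI held 2.87 against 5.22.

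In RV the highest values belonged to *PTMA* (0.37), *TUBA1B* (0.37), *H2AFZ* (0.34), *HIST1H4C* (0.33) and *UBE2S* (0.29), which serve chromatin, the cytoskeleton and mitosis and are abundant in dividing cells. The lowest were *NEAT1* (-0.44), a nuclear long noncoding RNA, *EEF1A1* (-0.30), *RPS4X* (-0.29), *S100A6* (-0.28) and *CDKN1A* (-0.27), which encodes the cell cycle inhibitor p21. RV cells with a *CDKN1A* UMI held 5.89 *MT2A* UMIs against 9.31 in those without, and those with a UMI of *TOP2A*, a topoisomerase of dividing cells chosen after its values were seen, held 12.4 against 8.29.

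In RVC the r values were smaller, up to 0.18 for *C15orf48*, 0.14 for *RPL35*, *AKR1B1* and *RPS6* and 0.13 for *H2AFZ*. The lowest were *UTS2* (-0.27), *MMP1* (-0.24), a collagenase, *NTS* (-0.20), *NEAT1* (-0.16) and *TGFBI* (-0.15). In RVT *H2AFZ* (0.16), *TMSB10* (0.15), *PCLAF* (0.15), *SPANXB1* (0.13) and *CAV1* (0.13) were highest and *RPS18* (-0.15), *RPL41* (-0.12), *RPL34* (-0.11), *RPS4X* (-0.11) and *MT-CO1* (-0.10) lowest. The median r over all genes was 0.00, 0.02, 0.00 and 0.01 in S, RV, RVC and RVT. RVT cells with a *TOP2A* UMI, 359 in number, held 0.448 *MT2A* UMIs against 0.177 in the others and 0.421 *MT1X* UMIs against 0.234. With and without a *TOP2A* UMI, S cells held 6.64 and 3.69 *MT2A* UMIs and RVC cells 2.14 and 1.81. The *MT1X* means were 0.137 and 0.139 for S cells, 0.269 and 0.203 for RV cells, and 0.790 and 0.728 for RVC cells.

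Within each library, metallothionein levels were higher in the cells with the largest share of G2/M transcripts (those of the 54 genes of the Seurat list that matched by symbol) than in those with the smallest. From the lowest to the highest of 4 equal bins of cells by that share, *MT2A* went from 1647 to 4493 CPM in S and from 2906 to 8378 CPM in RV. In RVC it went from 1006 to 1486 CPM, and in RVT from 100.03 to 202 CPM. The RVT bins between these were at 106 and 104 CPM, so that only the highest bin of RVT stood apart, whereas *MT2A* rose from bin to bin in S, RV and RVC. For *MT1X* the corresponding values were 88.2 and 102 in S and 99.1 and 179 in RV. RVC cells went from 465 to 557 CPM and RVT cells from 138 to 209 CPM. By ratio, the difference between these bins was larger for *MT2A* than for *MT1X* in all 4 libraries. The bins were cut within each library and do not match between libraries, since the median share of G2/M transcripts in the highest bin was 0.339%, 0.437%, 0.776% and 0.157% for S, RV, RVC and RVT. From the lowest to the highest RVT bin that median was 0%, 0.0494%, 0.0826% and 0.157%, in a library whose median cell held 2864 UMIs. The lower RVT bins were thus set apart by few G2/M UMIs per cell. Their like levels cannot show whether *MT2A* rose among them.

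**Figure D4:**
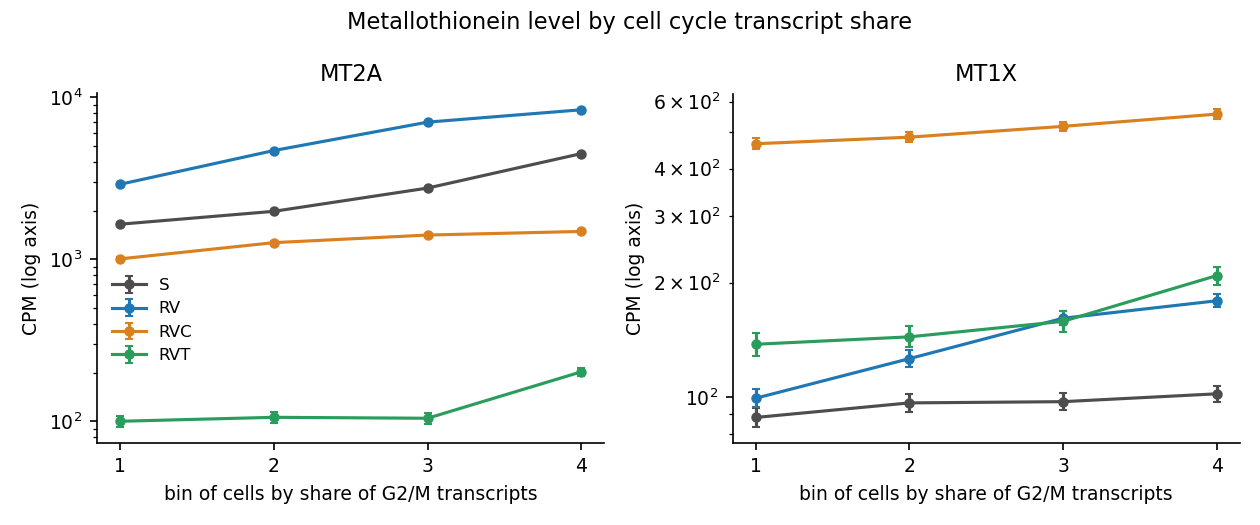
*MT2A* (left) and *MT1X* (right) in CPM (log axis) in 4 equal bins of the cells of S, RV, RVC and RVT, ordered by the share of G2/M transcripts; bars are exact 95% Poisson intervals of counting error. *MT2A* goes from 1647 to 4493 in S and from 2906 to 8378 in RV, and RVT stays at or below 202 in all bins.

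The level also differed between bins of cells by depth and by mitochondrial share. From the shallowest to the deepest of 4 equal bins of cells, *MT2A* went from 2231 to 3507 CPM in S, from 1120 to 1380 in RVC and from 109 to 139 in RVT. In RV it was at 4937, 5845, 6365 and 5874 CPM, highest in the third bin. From the lowest to the highest bin by mitochondrial share, it went from 3560 to 2088 CPM in S and from 6079 to 5228 CPM in RV. The same bins went from 1401 to 1238 CPM among RVC cells and from 157 to 104 CPM among RVT cells, and the median mitochondrial share was 3.16%, 3.06%, 3.58% and 5.77%. The part of either in the differences between libraries was not tested. In cells of 3000 to 6000 UMIs, *MT2A* was at 2313, 4971, 1299 and 128 CPM in S, RV, RVC and RVT, which put RVC over S at a log2 ratio of -0.83, short of 2-fold and with no GC centring. This range held 758 S, 219 RV, 3624 RVC and 3708 RVT cells. The lower quartile of UMIs per cell was 7117 in S and 9114 in RV, so that these were the shallow cells of S and RV.

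*MTF1*, the activator of the metallothionein genes and chosen for that role with its values known, was at 10.6, 9.30, 12.0 and 21.8 CPM in S, RV, RVC and RVT. *SLC30A1*, a zinc exporter of the plasma membrane that is itself a known MTF1 target and was chosen after its values were seen, was at 5.30, 5.20, 9.80 and 15.2. Both were highest in RVT, where 28.7% of all genes were at least 2-fold above S. Of the 10 genes of the SLC30 family, most of which carry zinc out of the cytosol, 4 passed 10 CPM in the mean, of which 0, 1 and 2 were at least 2-fold higher in RV, RVC and RVT than in S and none lower. For this and the following lists, the shares over all 6506 genes were 1.91% higher and 1.25% lower in RV, 22.5% and 23.3% in RVC, and 28.7% and 24.3% in RVT. The median log2 ratio of the 4 SLC30 genes was 0.00, 0.41 and 1.41, beside 0.02, 0.16 and 0.21 for all genes tested. *SLC30A7*, which loads zinc into the Golgi, went from 12.5 in S and 11.7 in RV to 21.1 and 59.9 CPM in RVC and RVT.

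Of the 14 genes of the SLC39 family, which bring zinc into the cytosol, 10 passed the same level. None was past 2-fold in RV, 3 were higher and 3 lower in RVC, and 3 were higher and 2 lower in RVT, with median log2 ratios of -0.04, 0.09 and 0.31. *SLC39A6* was at 26.2, 24.7, 26.9 and 125 CPM, with RVT far above the others. *SLC39A1*, a broadly expressed importer of the plasma membrane, was at 104, 105, 37.8 and 74.5 CPM.

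**Figure D5:**
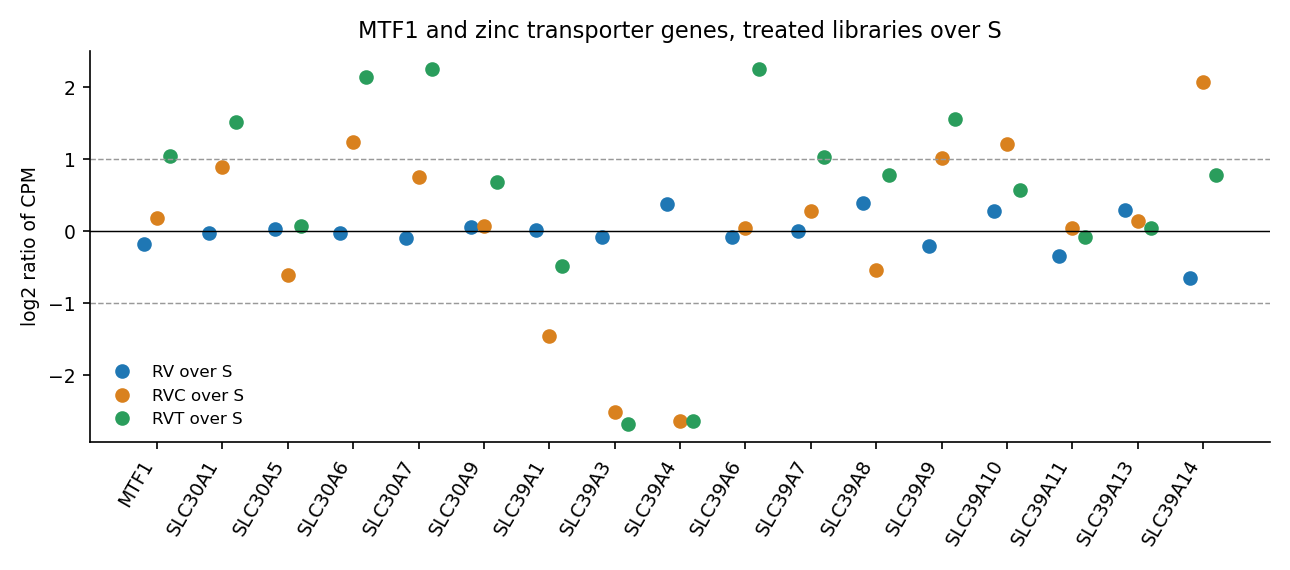
Log2 ratio of CPM over S in RV, RVC and RVT for *MTF1* and the SLC30 and SLC39 zinc transporter genes whose mean reached 5 CPM; 1 point per gene and library, and dashed lines at 2-fold. No RV point passes 2-fold, *SLC30A7* and *SLC39A6* are highest in RVT, and *SLC39A3* and *SLC39A4*, chosen after their values were seen, lie below the lower line in RVC and RVT.

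Of 12 genes of copper handling, 8 passed 10 CPM, with 0 past 2-fold in RV, 3 higher and 2 lower in RVC, and 0 higher and 2 lower in RVT. *COX17*, the copper chaperone of cytochrome oxidase, was at 327, 453, 1004 and 279 CPM in S, RV, RVC and RVT, and *SOD1*, the copper-zinc superoxide dismutase, at 253, 292, 644 and 377. *COMMD1*, which takes part in copper export, was at 22.7, 23.4, 68.0 and 34.5, and *ATOX1*, the chaperone of the copper pumps, at 774, 766, 738 and 560. Of the 8 genes *COX17*, *SOD1* and *COMMD1* were highest in RVC, and *ATOX1*, *CCS*, *SCO1* and *SCO2*, of which *CCS* and *SCO1* were named after their values were seen, were lower there than in S. *SCO2*, 1 of the 2 genes past 2-fold lower and chosen after its values were seen, had 1654 and 1587 UMIs in S and RV and 1 and 0 in RVC and RVT, a split that followed the 2 gene lists.

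Of 8 genes of iron and heme, 5 passed the level, with 0 past 2-fold in RV, 2 higher and 1 lower in RVC, and 4 higher and 0 lower in RVT, beside 22.5% higher and 23.3% lower of all genes in RVC and 28.7% and 24.3% in RVT. *FTL*, the light chain of the iron store ferritin, was at 3025, 2956, 25779 and 36055 CPM, and *FTH1*, its heavy chain, at 4438, 6037, 1261 and 4661. *TFRC*, the transferrin receptor, was at 7.02, 8.35, 55.9 and 47.3, and *NCOA4*, the receptor for ferritin breakdown, at 17.2, 13.0, 17.1 and 50.9. *FTL* and *TFRC* were each alike in S and RV and far higher in RVC and RVT, a split that followed the 2 gene lists.

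Of 10 genes of the glucocorticoid response, 4 passed the level, with 0 higher and 1 lower in RV, 2 higher and 1 lower in RVC, and 3 higher and 0 lower in RVT. *KLF9* was at 10.4, 3.96, 4.79 and 146 CPM in S, RV, RVC and RVT, *SGK1* at 7.67, 4.92, 125 and 79.2, and *ERRFI1* at 95.8, 68.3, 216 and 80.3. Whether these levels bear on that of *MT2A* was not tested. *NR3C1*, the receptor itself, was at 29.5, 28.2, 50.2 and 168 and was chosen after its values were seen.

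Of 12 heat shock genes, 11 passed the level, with 0 past 2-fold in RV, 7 higher and 2 lower in RVC, and 4 higher and 2 lower in RVT. Of all genes 22.5% were higher and 23.3% lower in RVC, and 28.7% and 24.3% in RVT, so that the RVT counts lay near the background. The median log2 ratio of the 11 was 0.29, 1.61 and 0.64, beside 0.02, 0.16 and 0.21 for all genes. *HSPA1A*, the inducible HSP70, was at 2.22, 4.10, 54.4 and 33.0 CPM, *HSPE1*, the mitochondrial co-chaperonin, at 289, 297, 1183 and 450, and *HSPH1* at 19.1, 25.03, 73.9 and 63.7. *HSPB1*, a small heat shock protein, was at 487, 594, 204 and 46.0, and *HSF1*, the heat shock transcription factor, at 66.4, 65.7, 10.1 and 9.06.

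Of 12 genes against oxidants, 10 passed the level, with 0 higher and 2 lower in RV, 3 higher and 2 lower in RVC, and 4 higher and 1 lower in RVT. *TXNRD1*, thioredoxin reductase, was at 25.8, 28.97, 137 and 418 CPM, *PRDX1*, a peroxiredoxin, at 369, 467, 1164 and 844, and *TXN*, thioredoxin, at 1130, 1530, 2136 and 1382. *NQO1*, a quinone reductase, was at 262, 118, 223 and 168, and *GPX4*, the lipid peroxidase of glutathione, at 335, 380, 21.9 and 51.4. Over cells, *TXN* had an r of 0.26 with the summed members in RV, the highest of the 20 genes of the metal, glucocorticoid, heat shock, oxidant and neighbour lists with at least 50 CPM there. *FTH1* was the highest in S, at 0.27, and was at -0.16 in RV.

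Of 9 genes that flank the metallothionein cluster, 5 passed the level, with 0 past 2-fold in RV and 1 higher and 1 lower in each of RVC and RVT. *NUDT21*, which lies upstream of the cluster and encodes a cleavage factor, was at 128, 156, 68.7 and 57.9 CPM in S, RV, RVC and RVT. *HERPUD1*, a gene of the endoplasmic reticulum stress response, was at 61.5, 47.1, 22.3 and 57.4. The highest and lowest libraries of *NUDT21* were 2.70-fold apart.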

How the data were processed

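UMI counts per gene and cell barcode were deposited by the authors, who made 1 Chromium v2 library per culture and, per the labels, used bcl2fastq 2.20.0.422 and Cell Ranger on build GRCh38. The version of Cell Ranger is not given in the sources used here, and the counts are not normalized. Barcodes with at least 500 genes and at most 20% mitochondrial UMIs were kept, and those with the highest scrublet scores (scanpy 1.11.5) were removed at 0.8% per 1000 barcodes. The scoring tool's own threshold marked 4, 2, 1 and 0 barcodes in S, RV, RVC and RVT, so the number removed rests on that rate. UMIs were summed over cells and divided by the library total (CPM, per 1000000 UMIs). Intervals (exact Poisson, Clopper-Pearson and conditional binomial, 95%) were computed in python 3.11.15 with scipy 1.17.1, and ratios were checked on simulated sums. TMM factors came from edgeR 4.0.16 in R 4.3.3 and the G2/M list from Seurat 5.3.0. With 1 library per condition there was no test between conditions. Cells were thinned to 1500 UMIs for shares, Fano factors and correlations. Genes named from the lists were, in each library, at most the 2 largest rises and 2 largest falls against S among genes that reached 50 CPM in any library, and over cells the 5 highest and 5 lowest correlations with the summed members. Marker genes given as a check of the cell type, and genes said to be chosen after their values were seen, stand outside this rule. The members, lists and rules were chosen with earlier results of these data known.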

Additional observations from a re-analysis of the deposited data

How the results depend on the processing

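The log2 ratios of the summed members were 1.05, -0.68, -3.32, -1.73, -4.36 and -2.63 for RV, RVC and RVT over S, RVC and RVT over RV, and RVT over RVC, in that order. With no cell filter they were 1.05, -0.70, -3.35, -1.75, -4.40 and -2.65. With at least 1000 genes per cell they were 1.05, -0.66, -3.22, -1.71, -4.26 and -2.56. With TMM factors they were 1.00, -0.90, -3.83, -1.90, -4.83 and -2.94. With library totals without ribosomal protein and mitochondrial genes they were 0.98, -0.88, -3.40, -1.86, -4.38 and -2.52. With equal weight for every cell they were 1.11, -0.65, -3.28, -1.75, -4.38 and -2.63. Without the 1% of cells with the most member UMIs they were 1.07, -0.65, -3.35, -1.72, -4.42 and -2.70. Centred on genes of like GC content they were 1.02, 0.47, -2.16, -0.54, -3.13 and -2.52. With that GC content taken from the protein-coding transcript with the furthest 3′ end, an alternative chosen after seeing the data, they were 1.02, 0.43, -2.25, -0.57, -3.29 and -2.55. In cells of 3000 to 6000 UMIs, also chosen after seeing the data, they were 1.07, -0.43, -3.05, -1.51, -4.12 and -2.61. Every one of these kept its direction but RVC over S, which was above S after either GC centring. For single genes, *MT2A* in RVC over S turned from -1.11 to 0.28 with either GC centring. Both used the same GC content for *MT2A*, 58.2%, so that the second was hardly a separate check for this gene. *MT1F* in RVT over S turned from 1.05 to -0.03 in cells of 3000 to 6000 UMIs, where few UMIs remained. *MT1X* in RVT over RV turned from 0.18 to -0.29 with TMM factors. Thinning to 1500 UMIs moved the shares of cells with a UMI to 86.4%, 95.7%, 75.6% and 15.8% for *MT2A* and 12.4%, 16.7%, 48.3% and 19.9% for *MT1X* in S, RV, RVC and RVT, since fewer UMIs per cell were read. Another draw moved these thinned shares by about 1 percentage point at most. Without thinning, r of *MT2A* with *MT1X* was 0.29, 0.45, 0.22 and 0.16, and with at least 1000 genes per cell 0.13, 0.20, 0.14 and 0.10. TMM factors were 0.875, 0.902, 1.01 and 1.25, so that TMM scaling set log2 ratios of all genes in RVT over S lower by 0.52. No paired analysis was possible because each condition is 1 library.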
